A study of Mus musculus with 32 samples.

Results

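Cytosolic ribosomal protein genes were described in the cerebral cortex of mice that carry segmental aneuploidy, across the 3 genotype labels of the series. A gene was taken if its symbol began with Rpl or Rps and a number or was Rpsa, Rplp0, Rplp1 or Rplp2, and symbols of the Rps6k kinases and symbols with -ps were left out. This gave 94 of the 55401 genes in the count table. They comprised 46 genes of the large subunit, 31 genes of the small subunit, 9 paralogues or retrogenes, 7 genes annotated as pseudogenes and Rps19bp1, which encodes a protein that binds a ribosomal protein and is not one itself. The rule reads gene symbols only.

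As background, each cytosolic ribosome holds 1 copy of nearly every ribosomal protein, so cells make these proteins in matched amounts, and proteins left without rRNA are degraded. Their mRNAs are short, abundant in every tissue and mostly begin with a C followed by a run of pyrimidines, the terminal oligopyrimidine motif, through which the kinase mTOR and the RNA-binding protein Larp1 control their translation. In neurons, ribosomes work in the cell body and in dendrites and axons, and loss of 1 gene copy of many ribosomal proteins causes Diamond-Blackfan anaemia in humans.

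The animals were 6 weeks old. There were 10 Ts65Dn;Df(17)2 mice (5 of each sex by label), 10 Dp(16)1/Df(16)8 mice (5 of each sex by label) and 12 +/+ mice (6 of each sex). As background, Ts65Dn mice hold a freestanding chromosome made of the distal part of chromosome 16 and the centromeric end of chromosome 17, while Dp(16)1 mice hold a duplication in chromosome 16 itself. Df(17)2 and Df(16)8 are deficiencies in chromosome 17 and in chromosome 16. The +/+ mice carry none of these alleles, and the strain background of the animals is not given in the sources used here. Each library is 1 animal, identified by its number in the label, and total RNA had been depleted of rRNA. Libraries held 6392531 to 11189548 counts for Ts65Dn;Df(17)2, 5795479 to 9149196 for Dp(16)1/Df(16)8 and 6375698 to 8532009 for +/+. Although its label says female, Dp(16)1/Df(16)8 replicate 2 had 14 Xist, 281 Eif2s3y and 696 Ddx3y counts. The call in Ts65Dn;Df(17)2, the median changes against +/+ and the median change by sex are also given without that library. Most other values are given with it only. Slc17a7, a marker of cortical excitatory neurons, had at least 2113 counts in every library, and markers of striatal neurons were found too: the mean log2 CPM (normalised counts scaled to equal library totals, the unit of levels here) of 15 striatal neuron markers was 6.66 ± 0.62 for Ts65Dn;Df(17)2, 6.07 ± 1.38 for Dp(16)1/Df(16)8 and 5.44 ± 1.41 for +/+ (SD, n = 10, 10 and 12).

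None of the 94 genes lies between Mrpl39 and Zbtb21 on chromosome 16 (GRCm38, chr16:84717576-97962622), the region that both rearrangements add, and none lies between the start of chromosome 17 and Pde10a. The genes were spread over 19 chromosomes, with 3 on chromosome 16 outside that region, 8 on chromosome 17 and 4 on X. Annotated small RNA genes (types snoRNA and scaRNA), 58 in all, lay on the same strand within the bounds of 30 of the 94 genes. Only genes with enough counts were tested (edgeR's filterByExpr), and 86 of the 94 passed among 16042 genes in all. Of the 8 that did not, Rps12l1 and Rpl10l, a testis copy of Rpl10, had 0 counts in all 32 libraries, which allows up to 3 counts in their sum. Rps23rg1 had 3 counts in total, Rpl39l 12, Rps27rt 42, Rpl6l 46, Rpl3l, the muscle form of Rpl3, 64, and Rpl32l 172.

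The start regions of 10 genes, chosen by hand, are printed as examples with and without the pyrimidine run that marks this class of mRNA. Not all genes that carry the results below are among them. RefSeq (GRCm38.p6) held a start region for 69 of the 94 symbols. Each line runs 5′ to 3′ from 20 bases before the annotated start to 20 bases from it on, and capitals mark runs of at least 6 pyrimidines between 10 bases before and 14 bases after the start.
Rps4x, chrX:102189372-102189411, minus strand: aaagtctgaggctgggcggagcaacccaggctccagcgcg
Rps26, chr10:128626487-128626526, minus strand: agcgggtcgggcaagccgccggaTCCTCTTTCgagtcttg
Rps24, chr14:24490658-24490697, plus strand: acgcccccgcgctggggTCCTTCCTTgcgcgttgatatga
Rpl24, chr16:55966255-55966294, plus strand: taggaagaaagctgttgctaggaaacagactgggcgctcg
Rpl28, chr7:4792945-4792984, plus strand: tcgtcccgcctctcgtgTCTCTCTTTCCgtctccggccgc
Rps6, chr4:86857348-86857387, minus strand: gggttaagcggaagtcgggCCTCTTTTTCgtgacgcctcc
Rplp2, chr7:141447631-141447670, plus strand: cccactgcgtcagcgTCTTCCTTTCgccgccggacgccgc
Rpl38, chr11:114668560-114668599, plus strand: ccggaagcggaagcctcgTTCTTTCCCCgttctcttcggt
Rps3a1, chr3:86142649-86142688, minus strand: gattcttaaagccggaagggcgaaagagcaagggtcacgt
Rpl26, chr11:68901546-68901585, plus strand: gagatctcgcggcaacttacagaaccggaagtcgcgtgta

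Such a run lay in the start window of 35 of the 69 genes (50.7%), against 23.6% of all 27025 RefSeq start regions. The letters CTTTC on the sense strand lay in that window in 20.3% of the genes and 2.93% of all. Over the whole 300 bases and on both strands, CCGGAAG, which the ETS factors bind, was found in 36.2% of the genes and 9.12% of all, and TCTCGCGA in 14.5% and 1.08%. TATAAA, the core of the TATA box, was found in 10.1% of the genes and 14.2% of all. Whether an annotated start is the base where transcription begins in cortex was not measured, so Rps4x, Rpl24, Rps3a1 and Rpl26 lack a run only at these annotated starts.

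Levels differed widely between genes whose proteins mostly stand in equal numbers in the ribosome. On a scale of CPM per kilobase of the principal transcript, averaged over the 32 libraries, the 77 genes of the subunits had a median of 68.8. Rps15, a protein of the small subunit head, was highest at 254, followed by Rps29 at 232, Rplp1, an acidic protein of the stalk that recruits elongation factors, at 219, Rpl9 at 196 and Rps21 at 174. Rps10 was lowest of the 77 at 10.4. The span was 24.5-fold, and the short transcripts of these genes (median 886 bases, against 3034 over the tested genes) make values per length sensitive to the transcript chosen. Reads that match a near-identical copy are uncertain as well, and the 319 genes left out for -ps in their symbols are not in these levels. The 94 genes together took 0.543% ± 0.032 of all counts for Ts65Dn;Df(17)2, 0.546% ± 0.031 for Dp(16)1/Df(16)8 and 0.530% ± 0.041 for +/+ (SD, n = 10, 10 and 12). The 3 ranges overlapped, with a lowest library at 0.470% and a highest at 0.616%, both +/+.

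**Figure D1:**
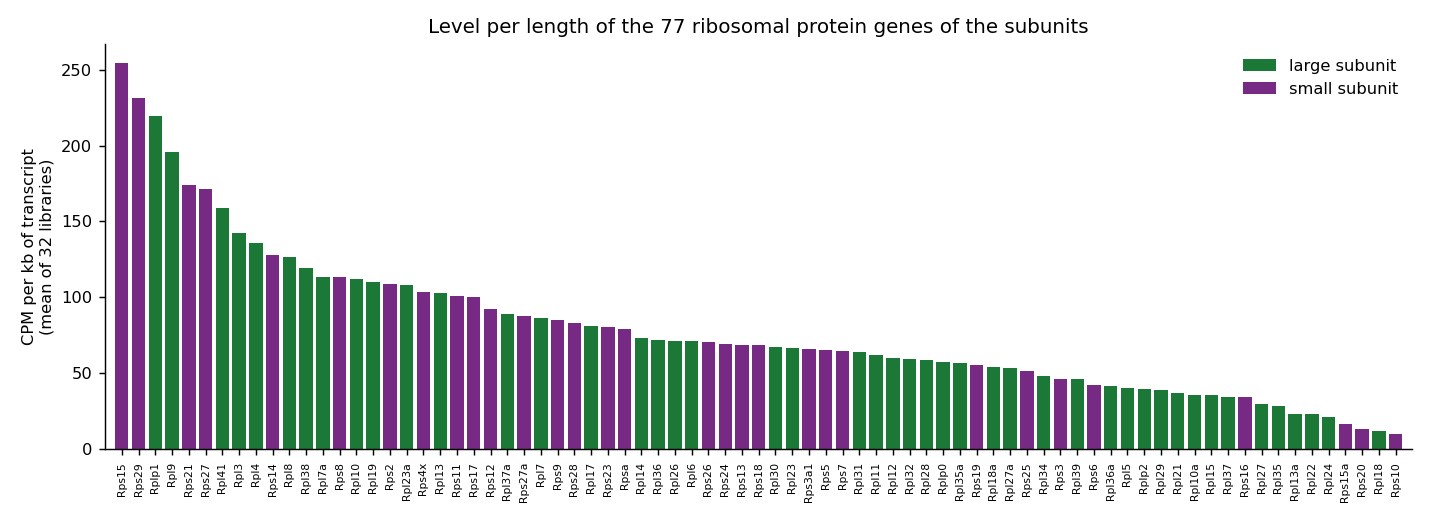
Mean level of the 77 genes of the large and small subunit in 32 libraries, in CPM per kilobase of transcript, ordered from highest to lowest. Bars run from 254 for Rps15 to 10.4 for Rps10, and both subunits are spread over the whole order.

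The first question was whether the ribosomal protein genes changed in Ts65Dn;Df(17)2 cortex. Rps4x alone passed the test, with a level 1.10-fold that of +/+, and the median change of the group was close to 0. Rps4x encodes a core protein of the small subunit and is X-linked (chrX:102184941-102189394, minus strand, ENSMUSG00000031320.9). In humans it has a counterpart on the Y chromosome. The gene had a lowest, median and highest level of 98.3, 107 and 110 CPM in Ts65Dn;Df(17)2, 91.3, 104 and 116 CPM in Dp(16)1/Df(16)8 and 88.2, 94.8 and 109 CPM in +/+. All 10 Ts65Dn;Df(17)2 animals lay above the +/+ mean of 95.8 CPM, but the groups overlapped. The log2 fold change was 0.14 (SE 0.039, adjusted p = 0.0438, quasi-likelihood F test of edgeR, adjusted by Benjamini-Hochberg over 16042 genes). This was 1 of 86 tested ribosomal protein genes, or 1.16%, against 3.97% of all genes tested (1.75% higher and 2.22% lower).

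The call on Rps4x was not steady. Without Dp(16)1/Df(16)8 replicate 2, which shares the estimate of spread, its adjusted p was 0.0534 by edgeR, and it was 0.0955 without the 2 Ts65Dn;Df(17)2 animals numbered below 30000. With the striatal marker score as a further term the log2 fold change was 0.10 and the adjusted p 0.258 by edgeR. DESeq2 and limma voom each called Rps4x and no other of the 86.

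At an unadjusted p under 0.05, edgeR listed 7 higher and 2 lower ribosomal protein genes in Ts65Dn;Df(17)2, or 10.5% of the 86, against 21.8% of all genes. The genes named here for their low p, other than Rps26 and Rpsa, were chosen after their values were seen. Rps26, a small subunit protein at the mRNA exit and a Diamond-Blackfan anaemia gene, had a lowest, median and highest level of 41.4, 52.3 and 62.6 CPM in Ts65Dn;Df(17)2, 39.7, 48.7 and 61.0 CPM in Dp(16)1/Df(16)8 and 30.9, 44.1 and 52.3 CPM in +/+. The groups overlapped, and its log2 fold change of 0.23 in Ts65Dn;Df(17)2 did not pass (SE 0.080, adjusted p = 0.0863, edgeR). Rpl24, the protein whose loss of 1 copy gives the Belly spot and tail mouse, averaged 15.7 ± 1.6 CPM in Ts65Dn;Df(17)2 and 13.9 ± 1.3 CPM in +/+ (SD, n = 10 and 12; adjusted p = 0.0889, edgeR). Rpsa, which is also known as the laminin receptor, averaged 160 ± 11 CPM in Ts65Dn;Df(17)2 and 146 ± 14 CPM in +/+, and all 10 Ts65Dn;Df(17)2 animals were above the +/+ mean (adjusted p = 0.154, edgeR, n = 10 and 12).

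**Figure D2:**
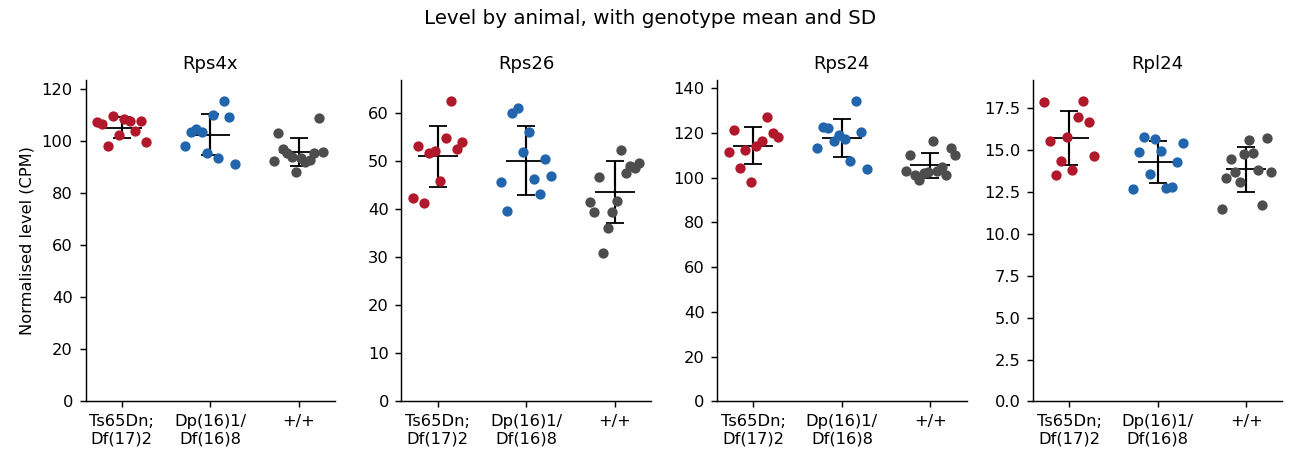
Normalised level in CPM of Rps4x, Rps26, Rps24 and Rpl24 in each animal, by genotype, with the genotype mean and SD as bars. For Rps4x all 10 Ts65Dn;Df(17)2 animals lie above the +/+ mean of 95.8 CPM, and in each panel the groups overlap.

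In Dp(16)1/Df(16)8 cortex no ribosomal protein gene passed the test. By edgeR 0 of the 86 were called, against 0.573% of all genes (0.418% higher and 0.156% lower), with 7 higher and 3 lower at an unadjusted p under 0.05 (all genes 12.8%). Limma voom called 0 and DESeq2 called Rps24. Rps24, a small subunit protein with alternative last exons and a Diamond-Blackfan anaemia gene, had a lowest, median and highest level of 98.2, 115 and 127 CPM in Ts65Dn;Df(17)2, 104, 118 and 134 CPM in Dp(16)1/Df(16)8 and 99.0, 103 and 116 CPM in +/+. Of the Dp(16)1/Df(16)8 animals, 9 of 10 were above the +/+ mean. The log2 fold change there was 0.16 (SE 0.041, adjusted p = 0.0734, edgeR), and in Ts65Dn;Df(17)2 it was 0.11 (adjusted p = 0.0954, edgeR). Apart from the copies Rps3a3 and Rps3a2, the lowest value was that of Rps27l, a p53-responsive paralogue of Rps27, at a log2 fold change of -0.35 in Dp(16)1/Df(16)8 and -0.26 in Ts65Dn;Df(17)2 (adjusted p = 0.262 and 0.227, edgeR). Rps27l averaged 4.35 ± 0.85 CPM in Dp(16)1/Df(16)8 and 5.54 ± 1.25 CPM in +/+ (SD, n = 10 and 12).

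Between the aneuploid genotypes edgeR, DESeq2 and limma voom each called 0 of the 86 genes, against 0.0499% of all genes by edgeR. At an unadjusted p under 0.05, edgeR listed 4 higher and 6 lower in Ts65Dn;Df(17)2, or 11.6% of the 86, against 4.10% of all genes. Rpl28 was the one with the smallest p: it had a lowest, median and highest level of 55.8, 61.7 and 67.4 CPM in Ts65Dn;Df(17)2, against 61.8, 67.5 and 75.8 CPM in Dp(16)1/Df(16)8, with overlapping groups (log2 fold change -0.13, adjusted p = 0.9998, edgeR).

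The size of change that these data leave room for was small for most of the genes. The 95% interval of the fold lay within 1.25-fold of no change for 74 of 86 genes in Ts65Dn;Df(17)2 against +/+, 74 in Dp(16)1/Df(16)8 against +/+ and 73 between the aneuploid genotypes. The median log2 fold change of the 86 against +/+ was 0.007 for Ts65Dn;Df(17)2 and 0.019 for Dp(16)1/Df(16)8, beside medians over all tested genes of 0.005 and 0.001. In these contrasts 51 and 55 of the 86 values were above 0. Without Dp(16)1/Df(16)8 replicate 2 the medians were 0.005 and 0.024, with 49 and 51 above 0. With the striatal marker score as a further term the medians were -0.036 and -0.001, with 24 and 42 above 0, so their direction was not steady. Both contrasts use the same +/+ animals.

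**Figure D3:**
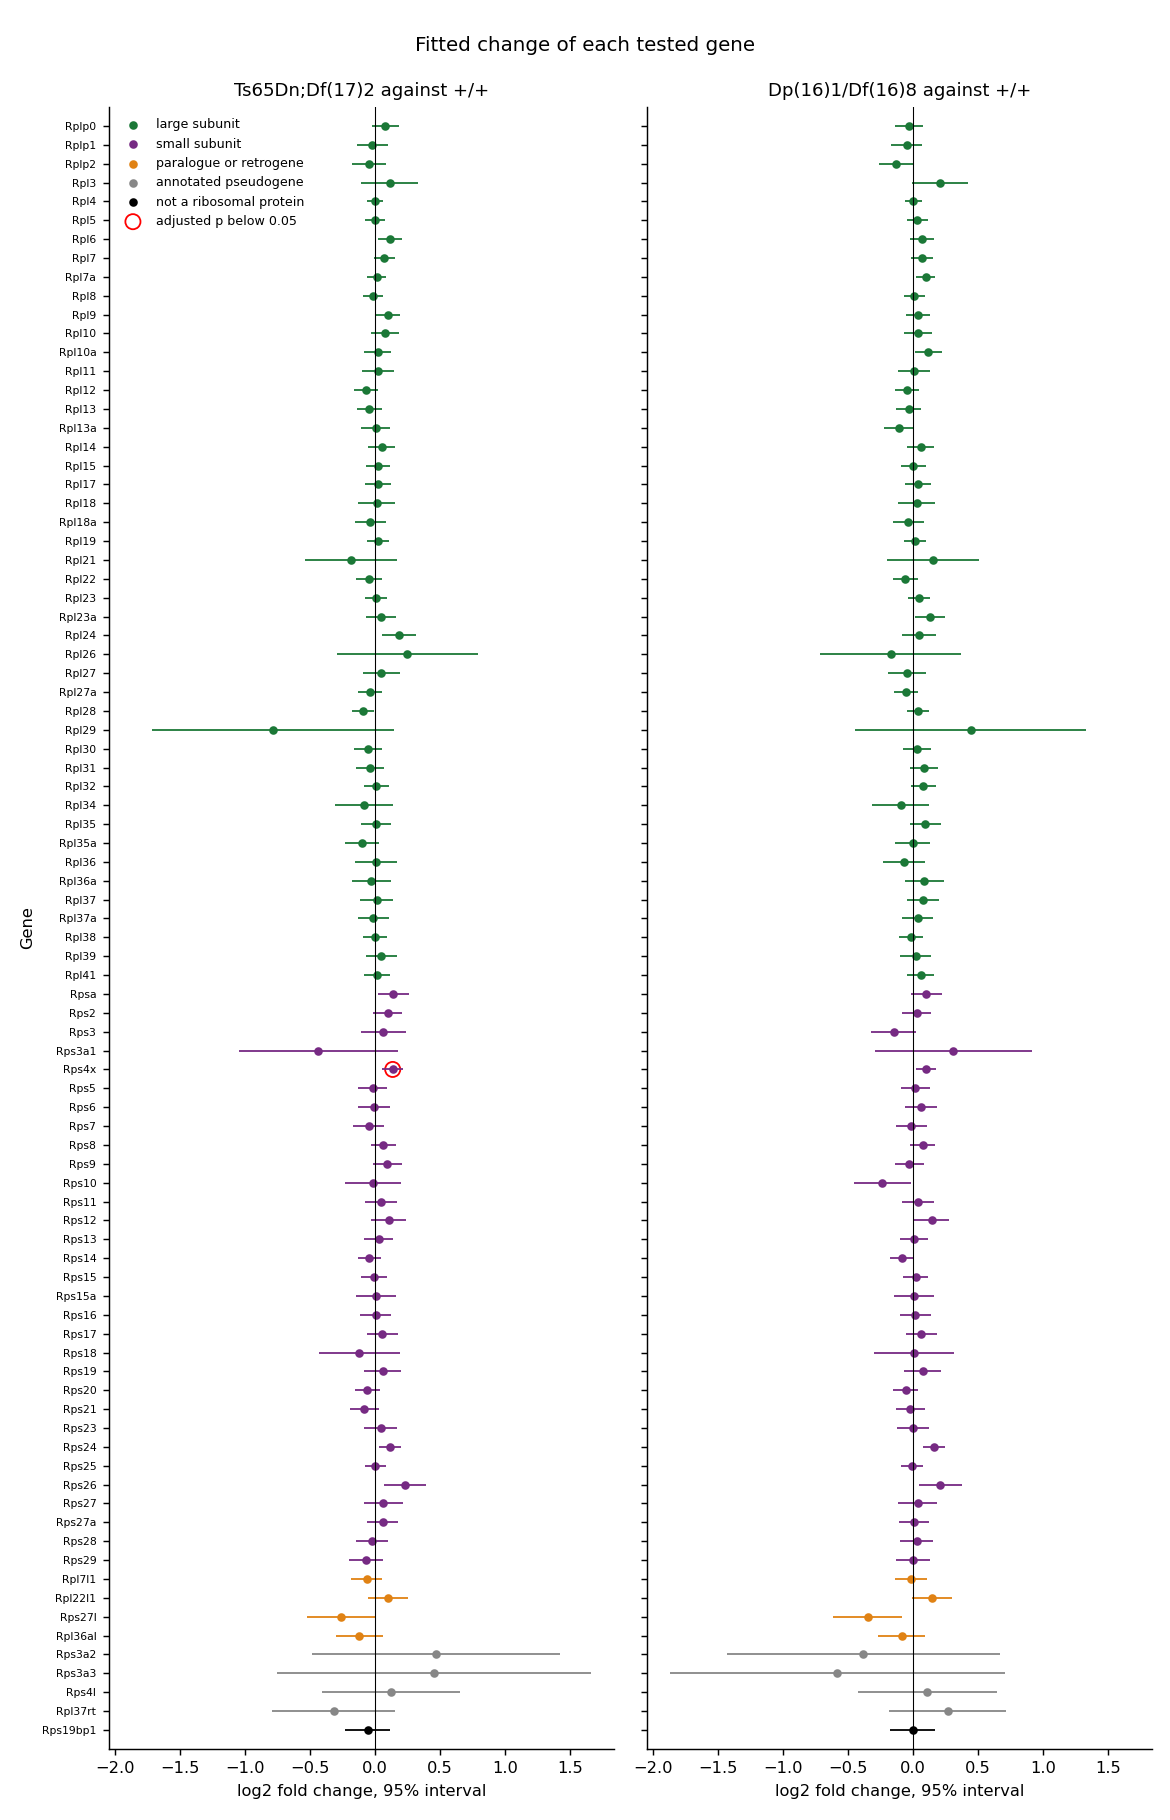
Fitted log2 fold change of each of the 86 tested genes with its 95% interval, in Ts65Dn;Df(17)2 against +/+ and in Dp(16)1/Df(16)8 against +/+. A red ring marks an adjusted p below 0.05, which Rps4x alone has, and the widest intervals belong to Rpl29, Rps3a1, Rpl26 and the copies Rps3a2 and Rps3a3.

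By role, the stalk proteins Rplp0, Rplp1, Rplp2 and Rpl12 had 0 of 4 called in any genotype contrast, where 3.97%, 0.573% and 0.0499% of all genes were called, so that counts of 0 in such short lists say little. Rplp0 averaged 82.1 ± 3.9 CPM in Ts65Dn;Df(17)2, 75.9 ± 7.1 CPM in Dp(16)1/Df(16)8 and 77.7 ± 7.3 CPM in +/+ (SD, n = 10, 10 and 12), and Rplp2 38.8 ± 3.9, 36.5 ± 3.6 and 40.1 ± 4.3 CPM in the same order of genotypes. Rpl5 and Rpl11, which carry 5S rRNA into the ribosome and bind Mdm2 when ribosome assembly fails, gave log2 fold changes of 0.002 and 0.023 in Ts65Dn;Df(17)2 and 0.033 and 0.008 in Dp(16)1/Df(16)8. Their folds had 95% intervals of 0.949 to 1.06 (Rpl5) and 0.934 to 1.11 (Rpl11) in Ts65Dn;Df(17)2. Of the 8 proteins lining the exit tunnel and the 4 at the mRNA entry and decoding site, 0 were called. The 16 Diamond-Blackfan anaemia genes had a median log2 fold change of 0.023 in Ts65Dn;Df(17)2 and 0.017 in Dp(16)1/Df(16)8, with 0 called, and the lowest value in Dp(16)1/Df(16)8 was that of Rps10 at -0.24 (adjusted p = 0.353, edgeR).

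Rps6, the small subunit protein that S6 kinases phosphorylate, averaged 36.5 ± 2.5 CPM in Ts65Dn;Df(17)2, 38.3 ± 4.0 CPM in Dp(16)1/Df(16)8 and 36.8 ± 3.9 CPM in +/+ (SD, n = 10, 10 and 12). Rps27a, which is made as a fusion with ubiquitin, averaged 71.1 ± 4.7, 68.5 ± 8.0 and 68.3 ± 6.2 CPM in these genotypes. Rpl41, which encodes the shortest of the ribosomal proteins, averaged 92.0 ± 8.4, 94.7 ± 5.7 and 91.1 ± 7.5 CPM. The differences between genotypes were smaller than the SD in each of these 3 genes.

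Of the tested paralogues, Rpl22l1 alone stood above its partner per length of the principal transcript. On that scale Rpl22l1, which encodes a close relative of Rpl22, stood at 45.7 CPM per kilobase and Rpl22 at 23.3, but per kilobase of all annotated exons Rpl22l1 stood below it, at 12.7 and 16.4. On the transcript scale Rps27l was at 9.78 and Rps27 at 171, and Rpl36al at 5.10 and Rpl36a at 41.5. The pair Rps4x and Rps4l, an annotated pseudogene, stood at 103 and 6.12. Rpl7l1, a nucleolar relative of Rpl7, was at 10.7 and Rpl7 at 86.6. By edgeR 0 of the 4 tested paralogues were called in a genotype contrast, where 3.97%, 0.573% and 0.0499% of all genes were called. Over the aligned bases of the transcripts, identity was 73.6% between Rpl22 and Rpl22l1 and 76.4% between Rps27 and Rps27l. Rps27rt, which had 42 counts, was identical to Rps27 over all 341 aligned bases, so its counts are uncertain.

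Male and female cortex were compared across the 32 libraries with genotype in the model. By edgeR 0 of the 86 genes were called, against 0.0748% of all genes, with 8 higher and 1 lower in males at an unadjusted p under 0.05 (all genes 9.9%). The values leaned one way: 71 of the 86 were above 0, with a median log2 fold change of 0.038 in males against females, beside 0.004 over all genes. Without Dp(16)1/Df(16)8 replicate 2 there were 69 above 0 and the median was 0.035. The 86 genes moved together between libraries, so these signs are not separate results. Their median log2 deviation per library had an SD of 0.071 over the 32 libraries. Of the striatal markers 15 of 15, and of the cortical excitatory markers 1 of 8, were above 0 in males against females, with 0 called, and their part in the result was not tested. The X-linked Rps4x had a log2 fold change of 0.02 and Rpl10 of 0.08 in males. In the genotype by sex interaction edgeR called 0 of the 86 genes, against 0% of all genes, with 9 at an unadjusted p under 0.05, or 10.5% of the 86, against 4.22% of all genes.

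Animals of the same genotype differed in the ribosomal protein genes as a group. For each library, genes above their own median over the 32 libraries were counted. Among Ts65Dn;Df(17)2 animals, replicate 2 had 75 of 86 genes above and replicate 3 had 10. Among Dp(16)1/Df(16)8 animals replicate 3 had 72 above and replicate 7 had 20, and among +/+ animals replicate 11 had 74 and replicate 4 had 10. Libraries at both ends were thus found in each genotype. Large and small subunit genes moved alike in most libraries: the median log2 deviation was 0.12 for the large and 0.14 for the small subunit in Ts65Dn;Df(17)2 replicate 2, and -0.16 and -0.20 in +/+ replicate 4. Genes of the mitochondrial ribosome, which are nuclear genes with Mrpl and Mrps symbols, had a median deviation of 0.006 and -0.066 in these libraries. In Dp(16)1/Df(16)8 replicate 10 the small subunit median, at -0.17, was further from 0 than the large subunit median, at -0.046.

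**Figure D4:**
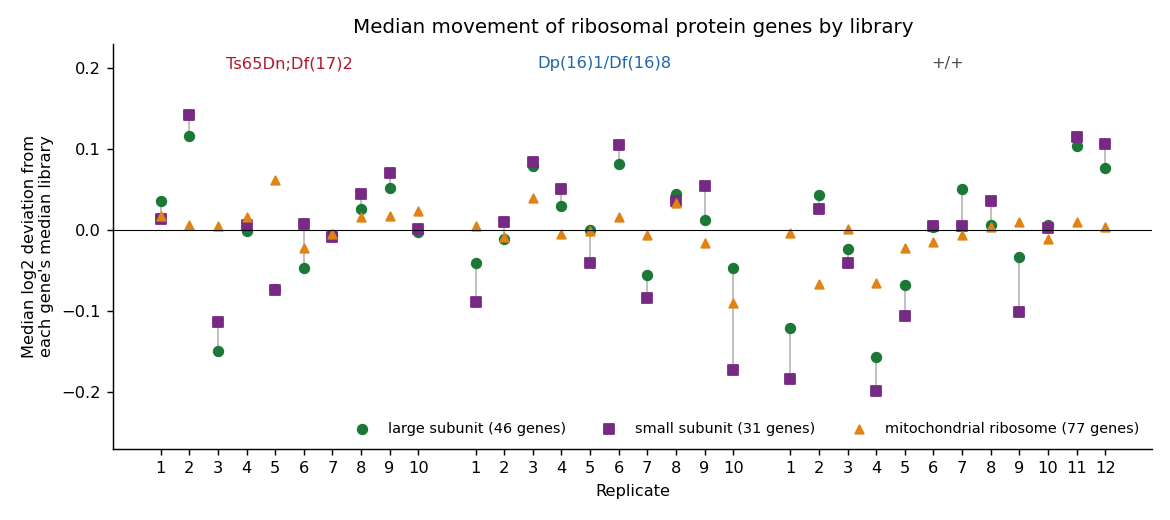
Median log2 deviation of large subunit, small subunit and mitochondrial ribosomal protein genes from each gene's median library, for the 32 libraries by genotype and replicate. Points for both cytosolic subunits lie furthest apart in Dp(16)1/Df(16)8 replicate 10, and run from 0.14 at the top in Ts65Dn;Df(17)2 replicate 2 to -0.20 in +/+ replicate 4.

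Markers of cell types differed between the libraries at these ends. The mean log2 CPM of 8 cortical excitatory neuron markers was 5.65 in Ts65Dn;Df(17)2 replicate 2 and 6.62 in replicate 3, 5.86 in Dp(16)1/Df(16)8 replicate 3 and 6.50 in replicate 7, and 5.79 in +/+ replicate 11 and 6.94 in replicate 4. In each of these pairs the library with more genes above had the lower marker level, but Ts65Dn;Df(17)2 replicate 7, with the lowest marker level of the 32 libraries at 5.45, had 39 of 86 genes above. Over genotypes this marker level was 6.06 ± 0.39 for Ts65Dn;Df(17)2, 6.23 ± 0.45 for Dp(16)1/Df(16)8 and 6.56 ± 0.36 for +/+ (SD, n = 10, 10 and 12). By edgeR 4 of the 8 markers fell in Ts65Dn;Df(17)2, where 2.22% of all genes fell. Of the 15 striatal markers all 15 had a log2 fold change above 0 in both aneuploid genotypes, with 0 called, and Isl1 was at 0 in 3 libraries. In bulk tissue, fewer cells of a type and less RNA per cell cannot be told apart. With the excitatory marker level as a further term, which was chosen after the data were seen, the median log2 fold change of the 86 genes against +/+ was -0.05 for Ts65Dn;Df(17)2 and -0.02 for Dp(16)1/Df(16)8, with 0 called in each by edgeR. In that fit 18 and 32 of the 86 values were above 0.

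A few of the genes took separate levels in different animals, and animals of 1 genotype stood at more than 1 of these levels. The tallies by genotype below do not separate genotype from animal number. Ts65Dn;Df(17)2 and Dp(16)1/Df(16)8 animals shared no run of adjoining numbers. Scatter between animals of one genotype and sex, as edgeR's biological coefficient of variation, had a median of 0.0855 over the 86 genes, beside 0.0857 for genes of like abundance and 0.120 for all tested genes. Far above this stood the copies Rps3a3 (1.17) and Rps3a2 (0.80), and Rpl29 (0.735), Rps3a1 (0.476), Rpl26 (0.431), the copy Rps4l (0.398), Rpl21 (0.281) and Rps18 (0.242). Rps18, Rps3 and the partners outside the group that are named from here on were chosen after their values were seen.

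Rpl29, a large subunit protein that also binds heparin at the cell surface (chr9:106429454-106431568, plus strand), had a lowest, median and highest level of 2.85, 4.66 and 49.98 CPM in Ts65Dn;Df(17)2, 23.5, 45.6 and 53.8 CPM in Dp(16)1/Df(16)8 and 3.39, 27.1 and 52.1 CPM in +/+. No animal lay between 4.86 and 23.5 CPM and none between 27.9 and 41.7 CPM. Below the first of these gaps were 6 of 10 Ts65Dn;Df(17)2, 0 of 10 Dp(16)1/Df(16)8 and 2 of 12 +/+ animals. The log2 fold change against +/+ was -0.78 for Ts65Dn;Df(17)2 and 0.44 for Dp(16)1/Df(16)8 (SE 0.46 and 0.44, adjusted p = 0.320 and 0.694, edgeR), and 95% intervals of the fold ran from 0.305 to 1.11 and from 0.734 to 2.51. Animals 32356 (+/+ replicate 3), 32358 and 32359 (Ts65Dn;Df(17)2 replicates 6 and 7) had 3.75, 4.86 and 4.46 CPM. Animals 27950 and 27951 (replicates 5 and 4) had 3.05 and 2.85 CPM. Neighbours also differed, as 32369 and 32370 (replicates 9 and 10) had 49.98 and 3.90 CPM. Whether the levels followed genotype or animal number was not tested.

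Rps3a1, a small subunit protein at the mRNA exit side (chr3:86137940-86142702, minus strand), had a lowest, median and highest level of 21.96, 28.4 and 105 CPM in Ts65Dn;Df(17)2, 62.7, 70.8 and 114 CPM in Dp(16)1/Df(16)8 and 25.1, 66.1 and 121 CPM in +/+. No animal lay between 29.2 and 60.7 CPM, and below this gap were 6 of 10 Ts65Dn;Df(17)2, 0 of 10 Dp(16)1/Df(16)8 and 4 of 12 +/+ animals. Its copy on chromosome 13, Rps3a3, had a lowest, median and highest level of 0.238, 38.1 and 42.2 CPM in Ts65Dn;Df(17)2, 0, 18.2 and 21.8 CPM in Dp(16)1/Df(16)8 and 0.252, 18.9 and 44.1 CPM in +/+. The 10 animals above its gap from 21.8 to 32.5 CPM were the same 10 that were low in Rps3a1. A further gap lay between 0.664 and 17.0 CPM, with 2 of 10 Ts65Dn;Df(17)2, 3 of 10 Dp(16)1/Df(16)8 and 3 of 12 +/+ animals below. The sum of Rps3a1, Rps3a2 and Rps3a3 still spanned 1.92-fold, from 63.1 to 121 CPM. All animals numbered 32368 to 32373 were low in Rps3a1, namely Ts65Dn;Df(17)2 replicates 8, 9, 10, 2 and 3 and +/+ replicate 7. Neighbours also differed, as animals 32350 and 32352 were low in Rps3a1 and 32351 was not.

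The copy differs from the gene at few bases, and a stretch of 60 coding bases with the most differences is shown for each. Over 795 aligned bases the transcripts of Rps3a1 and Rps3a3 were identical at 98.9%, with 9 differences, and Rps3a1 and Rps3a2 differed at 4 of 792. Both lines run 5′ to 3′ (GENCODE M21, GRCm38), bases 201 to 260 of the coding sequence in the gene, and capitals mark the differing positions. Counts of reads that match both are uncertain.
Rps3a1, in the gene at chr3:86137940-86142702, minus strand: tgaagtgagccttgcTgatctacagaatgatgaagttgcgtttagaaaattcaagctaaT
Rps3a3, chr13:108670803-108670862, plus strand: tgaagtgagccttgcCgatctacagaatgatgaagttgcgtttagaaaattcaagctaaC

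Rpl26, an exit tunnel protein that also promotes translation of p53 mRNA (chr11:68901583-68906989, plus strand), had a lowest, median and highest level of 35.4, 41.2 and 72.6 CPM in Ts65Dn;Df(17)2, 7.29, 38.7 and 74.7 CPM in Dp(16)1/Df(16)8 and 8.07, 41.4 and 77.6 CPM in +/+. No animal lay between 11.23 and 35.4 CPM, with 0 of 10 Ts65Dn;Df(17)2, 2 of 10 Dp(16)1/Df(16)8 and 1 of 12 +/+ animals below. None lay between 48.1 and 63.5 CPM either, with 3, 1 and 2 animals above in these genotypes. Of the 8 animals low in Rpl29 and the 10 low in Rps3a1, 2 were low in both, and 0 were low in Rpl26 as well as in either of them.

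Rps18, a small subunit head protein (chr17:33951999-33956001, minus strand), ran from 25.8 to 49.7 CPM in Ts65Dn;Df(17)2, from 27.4 to 55.1 CPM in Dp(16)1/Df(16)8 and from 23.5 to 57.5 CPM in +/+, without a gap of 1.3-fold. Its copy Rps18-ps6 on chromosome 13, which is 99.1% identical to it over 545 aligned bases, ran from 0.0885 to 6.09 CPM, from 0 to 7.51 CPM and from 0 to 6.60 CPM in these genotypes and moved in the opposite direction. Across the libraries Rps18 spanned 2.45-fold and the sum of both 1.98-fold. Rpl3, which forms part of the peptidyl transferase centre, ran from 146 to 242 CPM in Ts65Dn;Df(17)2, from 168 to 251 CPM in Dp(16)1/Df(16)8 and from 137 to 235 CPM in +/+. Its copy Rpl3-ps1 on X differs from it at 2 of 1210 aligned bases, and it ran from 0.625 to 26.4 CPM, from 0.678 to 15.5 CPM and from 0.494 to 25.7 CPM and moved against it as well. Rpl3 spanned 1.84-fold and the sum of both 1.595-fold.

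**Figure D5:**
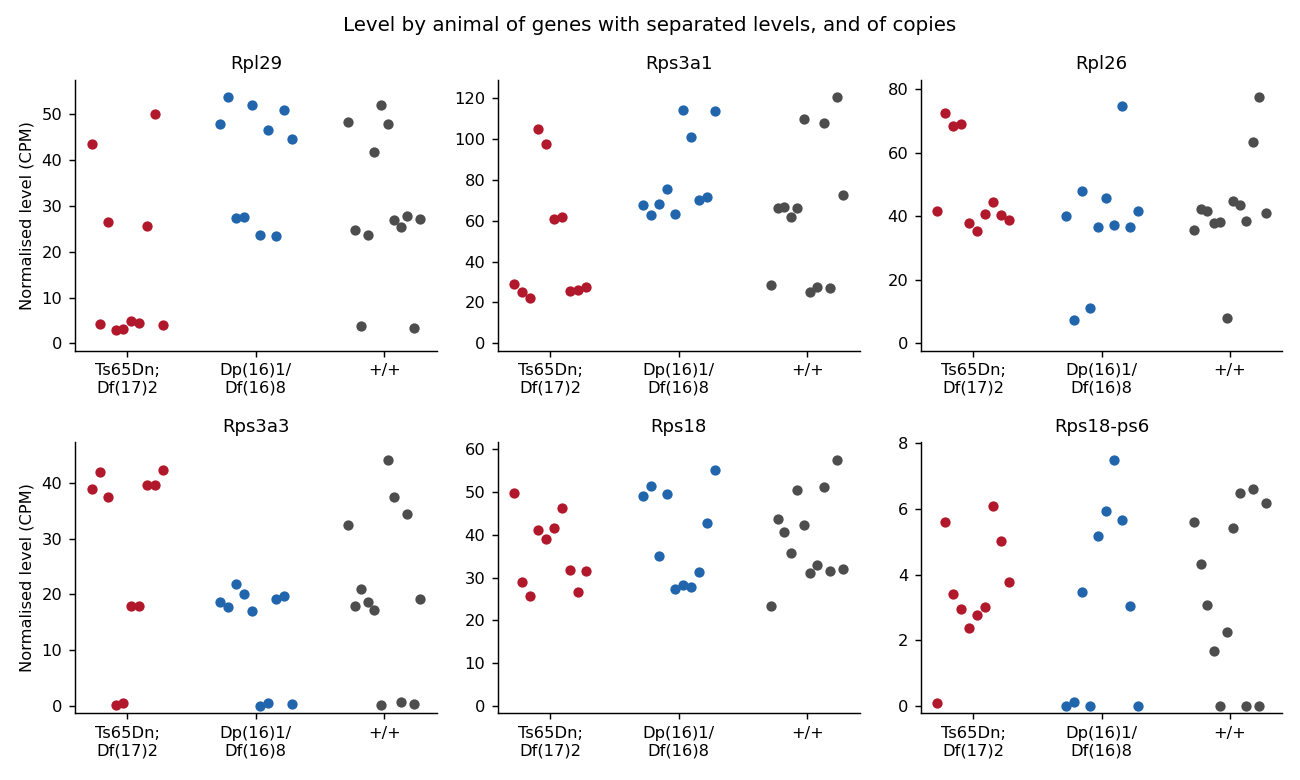
Normalised level in CPM by animal and genotype for Rpl29, Rps3a1, Rpl26 and Rps18 and for the copies Rps3a3 and Rps18-ps6. Rpl29 has no animal between 4.86 and 23.5 CPM, and Rps3a3 is above 32 CPM in the animals in which Rps3a1 is below 30 CPM.

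Such gaps were found at a like share among all genes. Among genes with a mean of at least 3 CPM, a gap of at least 1.3-fold with 2 or more animals on each side was found in 4 of 84 ribosomal protein genes (4.76%) and in 4.54% of all 13625 tested genes. The genes most like each of them were taken as the 10 with the largest absolute Pearson correlation of log2 CPM over the 32 libraries after genotype and sex were removed. For most genes few of these lay on the same chromosome: the median was 0 of 10 over the 86 genes and over all tested genes. For some genes at least 5 did. For Rpl29 9 of the 10 were on chromosome 9, which holds 5.71% of the tested genes, and the first was Abhd14a, 0.01 Mb away. For Rps3, which sits at the mRNA entry, 9 of the 10 were on chromosome 7, for Rps18 8 on chromosome 17, led by H2-D1 at 1.31 Mb, and for Rps3a1 7 on chromosome 3, led by Gon4l at 2.697 Mb, which moved in the opposite direction. Rpl21 had 6 on chromosome 5 and Rpl3 had 5 on chromosome 15. Of the other genes with a gap, Rpl26 had 4 on chromosome 11 and Rps3a3 had 1 on chromosome 13. At least 5 of 10 on the gene's own chromosome was reached by 6 of the 86 ribosomal protein genes (6.98%) and by 1.37% of all tested genes. The points of these correlations share library and depth.

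The genes that work with ribosomal proteins were read from lists in the same fit. Rack1, a small subunit protein and scaffold for signalling kinases, was not called in any genotype contrast by edgeR and averaged 66.3 ± 5.9 CPM in Ts65Dn;Df(17)2, 63.7 ± 4.4 CPM in Dp(16)1/Df(16)8 and 64.7 ± 4.6 CPM in +/+ (SD, n = 10, 10 and 12). Of 14 elongation factors and other terminal oligopyrimidine genes, 1 fell and 0 rose in Ts65Dn;Df(17)2, where 2.22% of all genes fell and 1.75% rose. This was Eef1a2, the elongation factor 1A of neurons and muscle, with 609 ± 28 CPM in Ts65Dn;Df(17)2, 646 ± 57 CPM in Dp(16)1/Df(16)8 and 688 ± 58 CPM in +/+ (log2 fold change -0.18 in Ts65Dn;Df(17)2, adjusted p = 0.0242, edgeR). By edgeR 0 of the 14 were called in Dp(16)1/Df(16)8, against 0.573% of all genes.

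Of 51 ribosome biogenesis genes, 2 rose and 1 fell in Ts65Dn;Df(17)2 and 0 were called in Dp(16)1/Df(16)8. The 3 calls were 5.88% of the list, near the 3.97% of all genes, and 0.573% of all genes were called in Dp(16)1/Df(16)8. Npm1, a nucleolar chaperone, rose to 99.2 ± 4.8 CPM in Ts65Dn;Df(17)2, against 87.8 ± 5.6 CPM in +/+ (log2 fold change 0.18, adjusted p = 0.0373, edgeR). Polr1a, the catalytic subunit of RNA polymerase I, rose to 53.6 ± 6.9 CPM in Ts65Dn;Df(17)2, against 42.6 ± 7.0 CPM in +/+ (log2 fold change 0.33, adjusted p = 0.0382, edgeR). Eif6, which keeps the large subunit from joining too early, fell to 16.2 ± 1.7 CPM in Ts65Dn;Df(17)2, against 19.3 ± 2.8 CPM in +/+ (log2 fold change -0.25, adjusted p = 0.0376, edgeR). With terms for runs of adjoining animal numbers the log2 fold change of Polr1a was 0.02 and its adjusted p 0.963 by edgeR. Eef1a2, Npm1 and Eif6 did not pass there either, at log2 fold changes of -0.16, 0.19 and -0.23 (adjusted p = 0.103, 0.134 and 0.213, edgeR). With the striatal marker score as a term, Eef1a2, Npm1, Polr1a and Eif6 had log2 fold changes of -0.11, 0.16, 0.36 and -0.15 and adjusted p of 0.216, 0.174, 0.0831 and 0.302 by edgeR.

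Among 15 genes of mTOR signalling and control of terminal oligopyrimidine mRNAs, 0 were called by edgeR in any genotype contrast. Of all genes 3.97%, 0.573% and 0.0499% were called in these contrasts. At an unadjusted p under 0.05, 2 were lower in Ts65Dn;Df(17)2 and 0 in Dp(16)1/Df(16)8. Beside the shares of all genes given above, such counts in a short list say little. Of 77 tested genes of the mitochondrial ribosome, 2 rose in each aneuploid genotype (2.60% of the list, against 1.75% of all genes in Ts65Dn;Df(17)2 and 0.418% in Dp(16)1/Df(16)8), and these 2, Mrps6 and Mrpl39, lie in the added region of chromosome 16. Mrps6 averaged 15.7 ± 2.2 CPM in Ts65Dn;Df(17)2, 15.4 ± 2.3 CPM in Dp(16)1/Df(16)8 and 9.73 ± 1.33 CPM in +/+. Mrpl39 averaged 22.9 ± 2.2, 24.8 ± 2.1 and 17.0 ± 2.3 CPM in these genotypes (SD, n = 10, 10 and 12). The log2 fold changes against +/+ were 0.69 and 0.66 for Mrps6 and 0.43 and 0.55 for Mrpl39 in Ts65Dn;Df(17)2 and Dp(16)1/Df(16)8. With terms for animal numbers Mrpl39 did not pass in Ts65Dn;Df(17)2 (log2 fold change 0.27, adjusted p = 0.106, edgeR).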

How the data were processed

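The authors deposited raw whole-number counts per gene for 32 libraries. Per the labels' protocols, 500 ng of total RNA was depleted of rRNA, and the tools were STAR 2.7.9a, bcl2fastq 2.20 and Subread 1.6.4 (featureCounts), per the submitters' processing notes. These notes name the builds GRCm38.p6 and GRCh38, of mouse and human, without their role. The strand setting and annotation release are not given in the sources used here, so reads of near-identical copies and of genes on opposite strands are uncertain. Library totals ran from 5795479 to 11189548 counts.

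Genotype and sex came from the labels. Counts were fitted with edgeR 4.0.16 in R 4.3.3 (filterByExpr by genotype, TMM factors, quasi-likelihood F test, genotype and sex, all 32 libraries, threshold 0.05 on the Benjamini-Hochberg adjusted p over 16042 genes). The SE is the size of the log2 fold change divided by the square root of F. Log2 CPM used a prior count of 2. The fit was also run on simulated counts whose changes were larger than that of Rps4x, so that run does not speak to changes as small as that one. Alternatives were DESeq2 1.42.0, limma voom 3.58.1, other scaling, filters, terms and samples. Coordinates and transcripts are from GENCODE M21, and start regions from RefSeq. The rule and the lists were chosen with earlier results of these data known. Named genes were those past the threshold, the 4 highest and 4 lowest fold changes per genotype contrast, the 5 highest and 5 lowest levels per length, fixed genes of each role, and up to 4 genes past the threshold in each other list. Upper limits for genes at 0 cover counting error only. One gene of the lists is not reported here.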

Additional observations from a re-analysis of the deposited data

Results flagged for a closer look

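In 5 of 88 groups of 10 animals checked, the lowest or highest animal stood far from the other 9; chance marks about 1 in 20 such groups. In Dp(16)1/Df(16)8 the same animal, replicate 10, was lowest in 3 genes: it had 59.8 CPM of Rplp0, against 72.2 to 83.3 CPM in the other Dp(16)1/Df(16)8 animals, 28.5 CPM of Rplp2, against 34.5 to 40.7 CPM, and 111 CPM of Rpsa, against 151 to 174 CPM. In Ts65Dn;Df(17)2, replicate 4 was highest in Rps4l, with 11.3 CPM, against 4.25 to 6.87 CPM in the others. Replicate 3 was lowest in Rpl7, with 90.4 CPM, against 98.5 to 107 CPM.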

How the results depend on the processing

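The alternatives changed the number of ribosomal protein genes called by at most 1. In Ts65Dn;Df(17)2 against +/+ it was 0 in edgeR without a filter beyond 1 count, with the striatal marker score as a term, with terms for runs of adjoining animal numbers, without Dp(16)1/Df(16)8 replicate 2, without the animals numbered below 30000 and with the cortical excitatory marker score as a term, which was chosen after seeing the data. It was 2 (Rps26 and Rps4x) when only the genotypes compared were fitted. In Dp(16)1/Df(16)8 against +/+ it was 1 (Rps24) by DESeq2 and with the terms for animal numbers. The adjusted p of Rps4x in Ts65Dn;Df(17)2 ran from 0.0222 by DESeq2 to 0.488 by edgeR with the excitatory marker score. Among all genes, 637 were called in Ts65Dn;Df(17)2 by edgeR, against 331 without the filter, 1069 by DESeq2, 152 and 103 with the striatal and excitatory scores, 195 with the animal number terms and 280 without the animals numbered below 30000. In Dp(16)1/Df(16)8 DESeq2 called 145 genes and edgeR 92. Over the pairs of a named gene's contrast and an alternative, 27 from 6 genes lost a call, 3 from Rps24 and Rps26 gained one, and 102 that passed the threshold in neither fit changed sign. The cause of these changes was not tested. No paired analysis was possible because the labels give no replicate numbers, and the animal numbers, used above as batch terms, match no animal of one genotype to one of another. In those terms 8 of 10 Ts65Dn;Df(17)2 animals shared a run with 4 +/+ animals, 2 with none, and 0 with Dp(16)1/Df(16)8. Leaving out each replicate in turn was not run, since each group holds at least 10 animals. Depth limits the copies and the genes that were not tested.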
